A study of Monodelphis domestica and Mus musculus with 26 samples.

Results

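Glycolysis enzymes and their germ-cell isozymes were followed through spermatogenesis in testes of the mouse and of the gray short-tailed opossum, a marsupial, and over opossum ages. The 10 genes are the lactate dehydrogenases LDHA, LDHB and LDHC, the phosphoglycerate kinases PGK1 and PGK2, the glyceraldehyde-3-phosphate dehydrogenases GAPDH and GAPDHS, the enolase ENO4, the glucose transporter SLC2A3 and the lactate and pyruvate transporter SLC16A1. They were matched by symbol, whatever its case. All 10 were found among 32532 mouse features. In opossum 6 were found, among 32251 features of the single-cell files and 34985 genes of the bulk tables: LDHA, LDHB, LDHC, GAPDHS, SLC16A1 and ENO4. GAPDH, PGK1, PGK2 and SLC2A3 are not named in the opossum files, so their levels there were not analysed here, and the opossum shares below cover the lactate dehydrogenases alone.

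Glycolysis splits glucose into pyruvate, and lactate dehydrogenase converts pyruvate and lactate into each other. In the testis, Sertoli cells are known to pass lactate to meiotic cells, and sperm carry glycolytic enzymes bound along the tail. Several steps have a second gene that is active mainly in male germ cells, such as Ldhc, Pgk2 and Gapdhs in the mouse. Pgk1 is X-linked, and X-linked genes are silenced during meiosis, while Pgk2 is an autosomal copy without introns.

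The series holds 26 testis samples: 6 libraries of dissociated cells read by droplet single-cell RNA sequencing, and 20 opossum bulk RNA libraries. Adult mice (3 libraries; replicates 1 and 2 labelled C57BL6/J, replicate 3 with no strain in its label, and all described as 8 to 16 weeks old) were set beside adult opossums (3 libraries, no strain given). Bulk groups were opossums of 1 month (2 libraries), 2 months (4), 3 months (4), 4 months (3) and adults (7). The labels name no treatment or allele and do not say whether replicates were separate animals, so p-values measure the spread between libraries, which may be technical.

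After filtering, between 7208 and 8714 mouse cells and between 5126 and 7476 opossum cells per library were kept, with median depths of 2750 to 4447 and 1620 to 2292 UMIs (unique molecular identifiers, one per captured RNA molecule). Clusters were named from marker genes with the 10 genes left out of the clustering. The 4 germ-cell classes held 1407, 4184, 6079 and 4547 mouse cells and 455, 3799, 1508 and 2150 opossum cells, in the order spermatogonia, spermatocytes, round and elongating spermatids. Mouse replicates 1 and 2 shared 198 cell barcodes, 1.82% of the smaller library, and other pairs at most 43. In mouse 1648, 1158 and 1853 cells of the 3 libraries stayed unnamed (22.0%, 16.1% and 21.3% of those kept), in 3 clusters; in opossum none did. One of these mouse clusters, of 1223 cells, passed 28 spermatocyte markers but stayed unnamed because a spermatogonial marker led it. Opossum naming rested on fewer markers. Found were 13 of 29 for spermatogonia, 26 of 39 for spermatocytes, 13 of 30 for round and 10 of 27 for elongating spermatids. In mouse 28, 39, 30 and 26 were found. Most kept opossum cells were put in somatic classes, while most kept mouse cells were put in germ-cell classes. In opossum, different clusters hold most of the elongating class in replicate 1 (cluster 6, 748 of 889 cells) and replicate 2 (cluster 16, 397 of 633 cells). The 2 largest opossum clusters scored as Sertoli cells were led by blood genes and rested on 3 markers each, so no opossum Sertoli level is given, and meiotic stage names were dropped for a like mismatch; both were decided after the clusters were seen.

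Levels are given as CPM (the UMI count of a gene scaled to the total of the class in a library). Changes are log2 changes from edgeR's quasi-likelihood test with TMM factors, which correct for composition, and a change counts as called where its p, adjusted by Benjamini-Hochberg over all genes, is under 0.05 and its size at least 1. The scales differ most at elongation, where the median change of all genes was -0.40 in mouse and -0.16 in opossum with TMM but -1.73 and -1.33 by library size alone. For that mouse step 3505 genes were called higher and 5554 lower with TMM, 5050 and 4105 with RLE factors, and 1354 and 9509 by library size. A member can therefore have a lower CPM and no fall by TMM, so both are given.

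Promoter sequences are shown for 2 pairs whose members moved together or apart: the neighbours Ldha and Ldhc, and the X-linked Pgk1 with its autosomal copy Pgk2. Each runs 5′ to 3′ over the 250 bases before the start of the GENCODE vM39 canonical transcript (GRCm39): chr7:46495013-46495262 (plus strand), chr7:46510377-46510626 (plus), chrX:105230456-105230705 (plus) and chr17:40519532-40519781 (minus). Capitals mark matches, on either strand, to TGACGTCA, TGACG (which lies within TGACGTCA), GGGCGG or TATAAA.
Ldha: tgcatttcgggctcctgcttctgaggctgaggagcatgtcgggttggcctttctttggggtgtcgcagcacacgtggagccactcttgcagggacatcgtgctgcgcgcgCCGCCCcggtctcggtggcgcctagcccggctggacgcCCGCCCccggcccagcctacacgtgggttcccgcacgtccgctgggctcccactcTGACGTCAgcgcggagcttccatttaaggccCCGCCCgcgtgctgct
Ldhc: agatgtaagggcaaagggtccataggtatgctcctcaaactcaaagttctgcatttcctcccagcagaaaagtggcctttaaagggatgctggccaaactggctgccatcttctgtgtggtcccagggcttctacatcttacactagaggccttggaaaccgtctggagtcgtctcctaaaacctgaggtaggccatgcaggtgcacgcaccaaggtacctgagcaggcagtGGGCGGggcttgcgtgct
Pgk1: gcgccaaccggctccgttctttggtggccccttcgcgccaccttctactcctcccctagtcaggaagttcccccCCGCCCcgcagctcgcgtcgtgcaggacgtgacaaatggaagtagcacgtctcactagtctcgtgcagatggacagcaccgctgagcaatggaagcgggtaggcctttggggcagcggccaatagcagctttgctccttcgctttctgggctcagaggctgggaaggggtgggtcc
Pgk2: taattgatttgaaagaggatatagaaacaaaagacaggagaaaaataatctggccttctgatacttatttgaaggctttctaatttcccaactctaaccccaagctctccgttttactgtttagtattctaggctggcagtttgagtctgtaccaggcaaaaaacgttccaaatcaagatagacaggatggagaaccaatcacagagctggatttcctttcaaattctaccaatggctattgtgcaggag
TGACGTCA was found once, in Ldha, with its first base 47 bases before the start. Of 21770 promoters of the same length, 1.70% hold it. GGGCGG, held by 36.3% of promoters, was found 3 times in Ldha and once each in Ldhc and Pgk1. None of the 4 motifs was found in the Pgk2 window, where TGACG and TATAAA have backgrounds of 18.0% and 11.9%.

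In mouse, Ldha (chr7:46490899-46505061) and Ldhc (chr7:46509777-46527794) lie side by side on the plus strand with 8 exons each. The opossum pair is also adjacent, LDHC at chr5:242633608-242658168 and LDHA at chr5:242664743-242677426, both on the minus strand in the deposited bulk tables. ASM229v1 is the only build named in the submitters' notes or labels beside the mouse builds GRCm39 and mm39. Pgk1 (chrX:105230706-105247305, 11 exons) and Pgk2 (chr17:40517906-40519531, 1 exon) share 79.3% of aligned coding bases. The figure is 73.2% for Ldha and Ldhc and 70.8% for Gapdh and Gapdhs. No pair shared a run of 30 bases anywhere in its transcripts.

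Ldhc and Ldha rose from spermatogonia to spermatocytes in mouse, while Ldhb fell. Ldhc, the germ-cell isozyme, had 337.3, 815 and 97.3 CPM in spermatogonia and 10277, 9719 and 5117 CPM in spermatocytes of replicates 1 to 3. The groups did not overlap, and the change was 5.54 ± 0.61 on the log2 scale (SE; edgeR adjusted p = 5.26e-06). Ldha, the isozyme of most tissues, went with it, from 43.5, 92.8 and 14.7 CPM to 1402, 1576 and 856 CPM (5.88 ± 0.48, edgeR adjusted p = 6.60e-07). Ldhb, the isozyme known from heart, fell from 14.4, 23.1 and 2.45 CPM to 1.08, 0.05 and 0.46 CPM (-3.65 ± 0.87, edgeR adjusted p = 0.00239), a change that was -2.23 and not called with cells of at least 2000 UMIs and -1.59 at clustering resolution 2. Without mouse replicate 2 it was -2.43. These germ-cell levels lie far below the somatic ones given further on, and the part of free RNA in the change was not tested. Ldhc took 86.6% ± 1.25 (SD, n = 3) of lactate dehydrogenase UMIs in mouse spermatocytes, and 89.6% ± 1.13 and 95.8% ± 1.34 in the round and the elongating class. Its share in spermatogonia was 86.0% ± 1.39, at far lower levels.

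Round spermatids kept Ldhc at 7799, 8120 and 4892 CPM and Ldha at 878, 1063 and 504 CPM, and neither change was called. At elongation Ldha reached 132, 171 and 93.2 CPM, a fall by 1.21 ± 0.39 on the log2 scale (edgeR adjusted p = 0.0183) that was not called with RLE factors (-0.59), with cells down to 500 UMIs (-0.78) or without mouse replicate 1 or 2 (-1.13 and -1.18). Ldhc read 2317, 4004 and 3134 CPM in elongating spermatids. Every library was below its own round spermatids in CPM, yet the TMM change was 0.32 ± 0.51 (edgeR adjusted p = 0.622), and it was -1.08 by library size, so its direction rests on the scaling.

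The phosphoglycerate kinases parted in mouse. Pgk1 had 48.1, 49.6 and 28.1 CPM in spermatogonia and 0, 0.49 and 1.87 CPM in spermatocytes (-5.08 ± 0.91, edgeR adjusted p = 2.77e-04). It then rose to 5.18, 4.82 and 6.47 CPM in round spermatids (3.28 ± 0.84, edgeR adjusted p = 0.00479), still below every spermatogonial library. With the unnamed cluster counted as spermatocytes, a setting chosen after seeing the data, those 2 changes were -3.46 and 1.71. Pgk2 read 81.2, 113 and 2.99 CPM in spermatogonia, below the Sertoli and stromal classes given further on in each library. In spermatocytes Pgk2 read 214, 285 and 69.0 CPM, below the Sertoli class in each library. It had 559, 508 and 484 CPM in round and 1259, 1388 and 1248 CPM in elongating spermatids. Its log2 changes were 2.68 ± 0.75, 1.94 ± 0.73 and 2.73 ± 0.73 (edgeR adjusted p = 0.00695, 0.0364 and 0.00671). The middle one was not called without mouse replicate 1 or 2 (2.07 and 2.48) or with cells down to 500 UMIs (1.54), and was 1.27 without replicate 3. The last was not called by library size (1.33). Pgk2 made up 47.3% ± 32.8 (SD, n = 3) of the pair in spermatogonia, with libraries at 62.8%, 69.4% and 9.60%, and 99.1% ± 1.47 in spermatocytes.

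Gapdh fell in mouse spermatocytes and Gapdhs rose in spermatids. Gapdh fell from 682, 505 and 287 CPM in spermatogonia to 18.9, 14.7 and 9.70 CPM in spermatocytes (-4.10 ± 0.36, edgeR adjusted p = 9.97e-07). Gapdhs, the sperm isozyme, read 267, 305 and 53 CPM and then 61.7, 60.5 and 21.8 CPM (-1.04 ± 0.45, edgeR adjusted p = 0.0641, called with RLE factors at -1.498). It rose to 824, 689 and 509 CPM in round spermatids (4.17 ± 0.51, edgeR adjusted p = 2.27e-05) and to 4373, 4729 and 2854 CPM in elongating spermatids (3.93 ± 0.50, edgeR adjusted p = 2.58e-05). Its share of the pair was 27.1% ± 11.1 (SD, n = 3) in spermatogonia, 75.4% ± 5.67 in spermatocytes, and 98.8% ± 0.36 and 99.7% ± 0.06 in the round and the elongating class. In this share, the 3 libraries of each later class lay above all libraries of the class before it. At the first step, though, Gapdhs itself had a lower CPM in each library, and its share rose because Gapdh fell more. The spermatogonial and spermatocyte levels of Gapdhs lie below the Sertoli and stromal classes given further on.

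**Figure D1:**
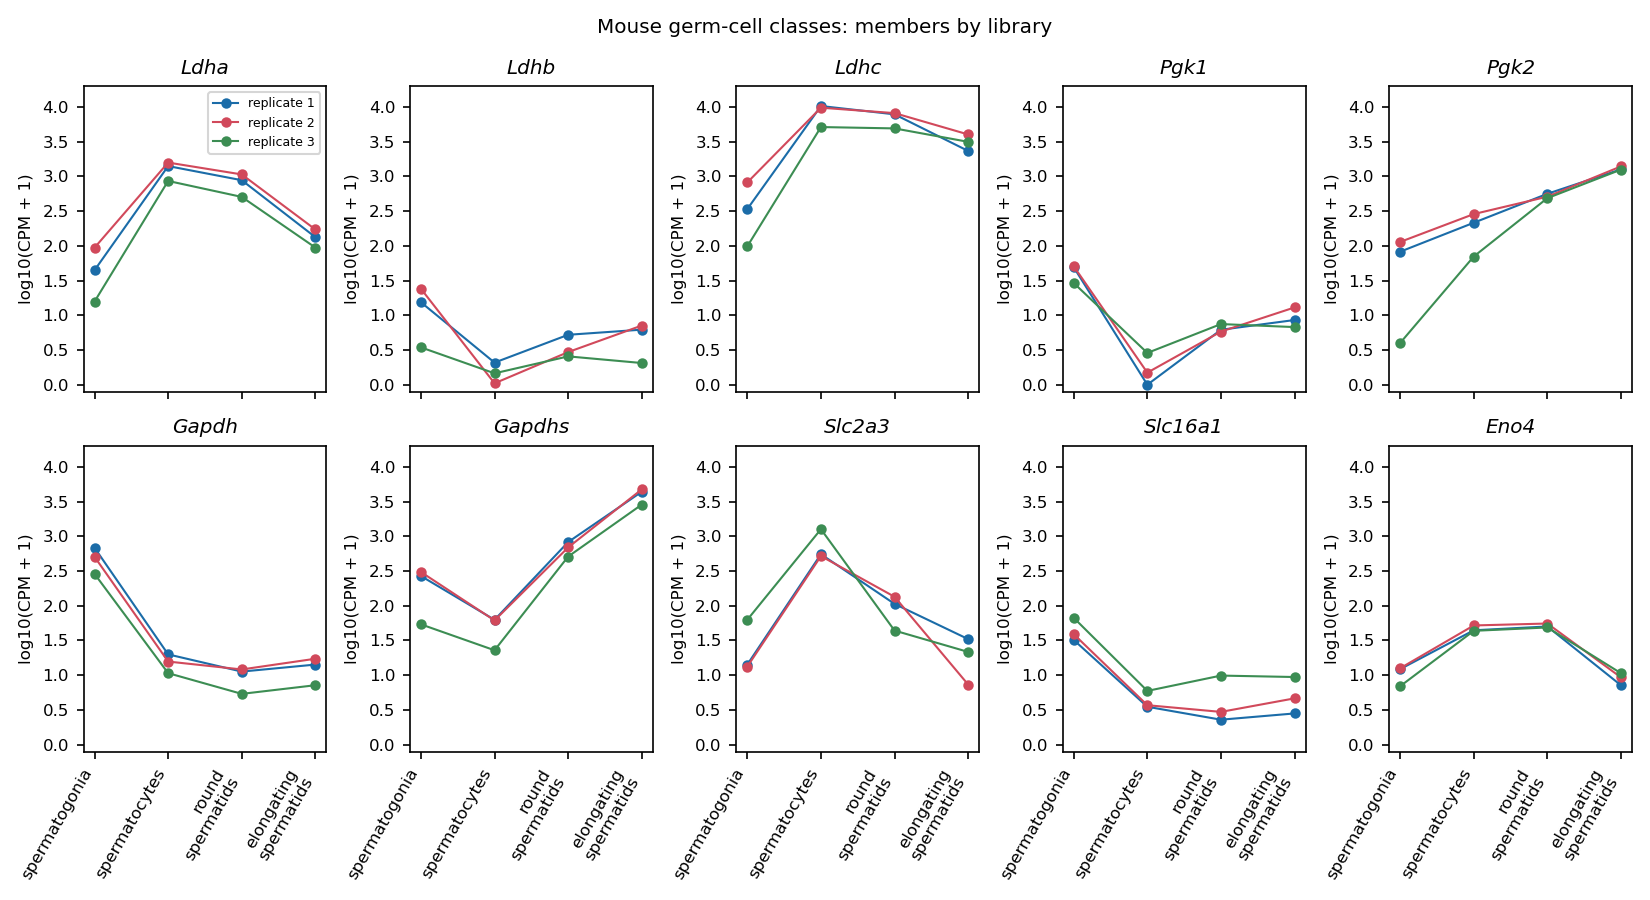
Levels of the 10 genes in mouse germ-cell classes, as log10(CPM + 1), 1 line per library. Pgk2 and Gapdhs are highest in elongating spermatids in all 3 libraries, while Gapdh and Pgk1 are highest in spermatogonia.

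**Figure D2:**
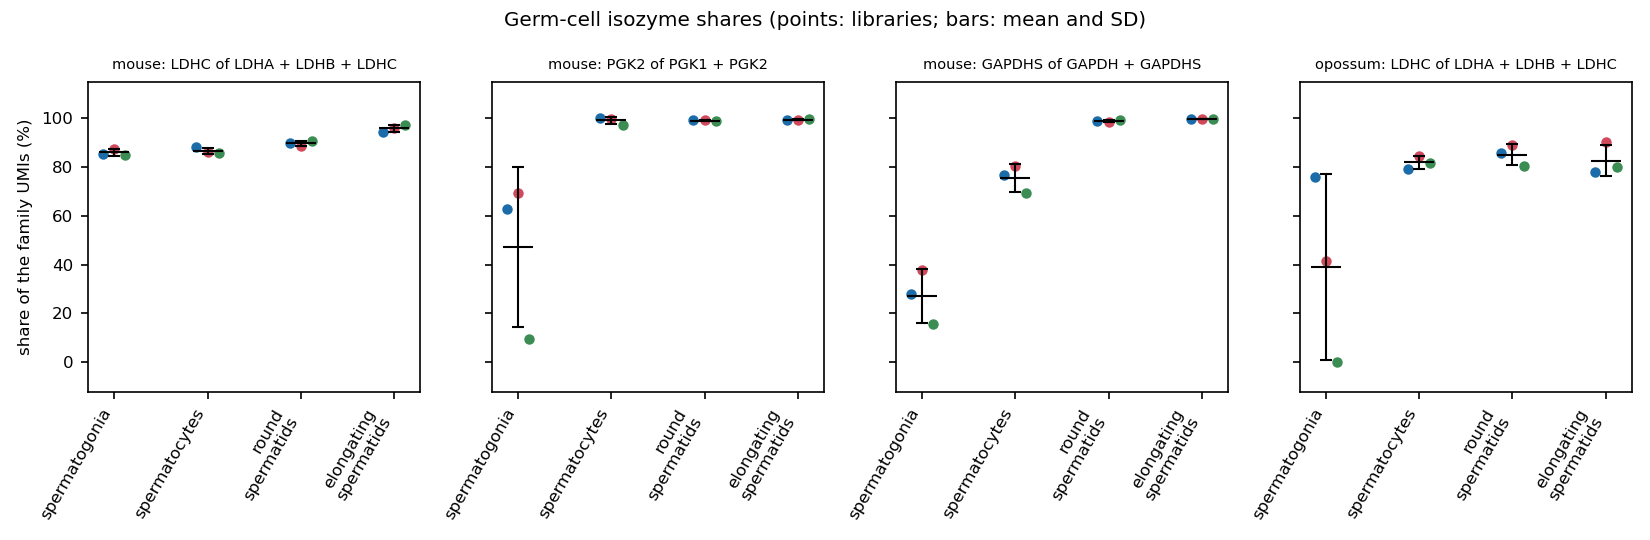
Share of the family's UMIs held by the germ-cell isozyme, in percent, by class. Points are libraries, bars the mean and SD of 3 libraries. The mouse GAPDHS share goes from 27.1% to 99.7%, but at the first step GAPDHS had a lower CPM and GAPDH fell more.

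The transporters peaked at different classes. Slc2a3, a high-affinity glucose transporter, had 13.2, 12.3 and 61.9 CPM in mouse spermatogonia and 551, 518 and 1264 CPM in spermatocytes (5.80 ± 0.78, edgeR adjusted p = 2.48e-05). It then fell to 105, 133 and 42.9 CPM in round spermatids (-2.56 ± 0.67, edgeR adjusted p = 0.00540). Slc16a1 dropped from 31.2, 37.9 and 65.9 CPM in spermatogonia to 2.51, 2.70 and 4.94 CPM in spermatocytes (-2.75 ± 0.51, edgeR adjusted p = 3.68e-04). Eno4, a sperm enolase, rose from 11.2, 11.6 and 5.94 CPM to 43.3, 51.0 and 42.5 CPM (3.22 ± 0.43, edgeR adjusted p = 2.42e-05), read 49.3, 54.4 and 47.7 CPM in round spermatids (0.36 ± 0.37, edgeR adjusted p = 0.431), and fell to 6.16, 8.30 and 9.67 CPM at elongation (-1.26 ± 0.38, edgeR adjusted p = 0.0131; not called with RLE factors, -0.63, or without mouse replicate 1 or 2, -1.09 and -1.22).

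Over the mouse steps, 9 of 10 members were called at the first (5 higher, 4 lower), where 56.2% of all 18500 genes tested were called. At the second, 5 were called (4 higher, 1 lower) against 51.9% of all genes. One of the 4 is Ldhb, at 4.23, 1.95 and 1.56 CPM in round spermatids (2.72 ± 0.82, edgeR adjusted p = 0.0121), which was not called in 7 alternatives, among them 0.35 with cells of at least 2000 UMIs, 1.17 with the unnamed cluster as spermatocytes and 3.10 without mouse replicate 1. At the third 8 were called (6 higher, 2 lower) against 49.0%. The medians of the members were 0.82, 0.22 and 1.80, beside 0.14, 0.00 and -0.40 for all genes. At elongation Ldhb, Pgk1, Slc16a1 and Gapdh rose by 1.896, 1.985, 1.756 and 1.845 on the log2 scale with TMM. By library size alone these rises were not called (0.53, 0.62, 0.38 and 0.47). Without mouse replicate 1 or 2 those of Ldhb (2.04 and 1.29), Pgk1 (2.03 and 1.60) and Slc16a1 (1.73 and 1.54) were not called. The rise of Ldhb was also not called with cells down to 500 UMIs (1.45), with the members in the clustering (1.88), with no doublet removal (1.95) or with the unnamed cluster as spermatocytes (1.92).

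Germ-cell transcripts were also read, at unequal levels, in mouse somatic classes, which should lack them. Ldhc had 3319, 5615 and 731 CPM in Sertoli cells, 873, 1747 and 556 CPM in peritubular or stromal cells and 246, 10.2 and 99.4 CPM in Leydig cells. Gapdhs read 1592, 1709 and 352 CPM in Sertoli, 439, 573 and 120 CPM in stromal and 162, 118 and 20.4 CPM in Leydig cells. Pgk2 read 608, 695 and 126 CPM, 183, 244 and 73.6 CPM, and 49.1, 5.32 and 13.7 CPM in the same order. The spermatogonial levels of all 3 genes, and the spermatocyte level of Gapdhs, lie below the Sertoli and the stromal class in each library. They are therefore not taken as evidence of expression, and whether they are background was not tested. Against the Leydig class the spermatogonial levels were higher in each library for Gapdhs and in replicates 1 and 2 for Ldhc and Pgk2. The first-step changes of these genes therefore start from levels below the Sertoli and stromal classes, and that of Gapdhs also ends at such levels. Spermatocyte Pgk2 lies below the Sertoli class and above the Leydig class in each library, and above the stromal class in replicates 1 and 2. Round spermatids hold Pgk2 and Gapdhs above the stromal and Leydig classes in each library, but below the Sertoli class in replicates 1 and 2. The same holds for Ldhc in elongating spermatids. Spermatocyte and round Ldhc, and elongating Pgk2 and Gapdhs, lie above all 3 somatic classes in each library. The part of free RNA or mixed droplets in these values was not tested. Ldha, a gene of most tissues, read 343, 534 and 122 CPM in Sertoli and 66.8, 53.3 and 70.0 CPM in Leydig cells, so its spermatocyte level is above both and its elongating level below the Sertoli class in each library. Ldhb was a somatic transcript in mouse, at 953, 1089 and 724 CPM in Leydig cells and 921, 745 and 631 CPM in Sertoli cells, far above each germ-cell class in every library. Gapdh was also high there, with 508, 403 and 438 CPM in Leydig cells.

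LDHC and LDHA also rose from spermatogonia to spermatocytes in opossum. LDHC read 2.39, 5.42 and 0 CPM in spermatogonia, from 14.8 UMIs in all, and 616, 816 and 534 CPM in spermatocytes (8.20 ± 0.73, edgeR adjusted p = 3.19e-08). LDHA had 0.77, 0.83 and 0 CPM and then 160, 140 and 105 CPM (edgeR adjusted p = 5.92e-07). Spermatogonial LDHA rests on 2.81 UMIs, so no fold is given. LDHB read 0, 6.88 and 5.38 CPM and 1.59, 8.96 and 14.4 CPM (1.14 ± 0.92, edgeR adjusted p = 0.30). LDHC held 81.8% ± 2.68 (SD, n = 3) of lactate dehydrogenase UMIs in spermatocytes, and 85.0% ± 4.33 and 82.6% ± 6.50 in the round and the elongating class.

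In round spermatids LDHC had 482, 1063 and 301 CPM and LDHA 75.9, 129 and 54.5 CPM. The elongating values were 404, 95.1 and 119 CPM for LDHC and 66.6, 3.46 and 23.7 CPM for LDHA. None of these 4 changes was called with TMM, and the libraries overlapped between round and elongating spermatids for both genes. Within each library, though, both were lower in elongating than in round spermatids in CPM. The elongation change of LDHC was -0.39 ± 0.52 with TMM (edgeR adjusted p = 0.593), -1.51 and called by library size, -2.89 and called with cells of at least 2000 UMIs, and 0.97 and not called with cells down to 500 UMIs. That of LDHA was -0.69 ± 0.61 (edgeR adjusted p = 0.404), -1.75 and not called by library size, and called at -6.07 and 1.32 under the 2 depth minimums, so their direction rests on the cells kept; it also turned without opossum replicate 2 (0.35 for LDHC and 0.44 for LDHA). LDHB went from 5.13, 3.06 and 19.2 CPM to 47.2, 7.01 and 6.34 CPM (2.61 ± 0.94, edgeR adjusted p = 0.0315), which was not called without replicate 1 (1.39) or 2 (2.72), by library size (1.54), with no doublet removal (2.05), or at either of the other depth minimums (2.15 and 1.45).

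GAPDHS was higher in each later class of opossum germ cells, though its spermatocyte level lies below the stromal class given further on in each library. It had 0, 1.35 and 0 CPM in spermatogonia (2.88 UMIs, no fold given) and 38.5, 71.9 and 91.7 CPM in spermatocytes (edgeR adjusted p = 6.20e-07). Round spermatids held 560, 628 and 467 CPM (3.32 ± 0.54, edgeR adjusted p = 4.47e-05) and elongating spermatids 2247, 2577 and 1573 CPM (3.15 ± 0.53, edgeR adjusted p = 7.27e-05). The last change was 1.40 and not called with cells down to 500 UMIs, and 1.94 by library size. No library overlapped between neighbouring classes.

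ENO4 took the same order in replicates 1 and 3, while in replicate 2 its CPM was lower in elongating than in round spermatids. It read 0, 0.59 and 0.04 CPM in spermatogonia (1.29 UMIs, no fold given), then 15.9, 43.5 and 53.3 CPM in spermatocytes (edgeR adjusted p = 1.06e-06) and 293, 424 and 186 CPM in round spermatids (3.45 ± 0.52, edgeR adjusted p = 2.04e-05). Elongating spermatids had 401, 381 and 723 CPM (1.85 ± 0.48, edgeR adjusted p = 0.00411). In CPM the elongating and round libraries overlap, and the last change was not called by library size (0.68) or without replicate 3 (1.31), and was -0.75 with cells down to 500 UMIs. SLC16A1 fell from 98.3, 68.9 and 78.7 CPM in spermatogonia to 9.12, 10.2 and 9.66 CPM in spermatocytes (-2.67 ± 0.57, edgeR adjusted p = 5.56e-04; -0.39 and not called with cells of at least 2000 UMIs).

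**Figure D3:**
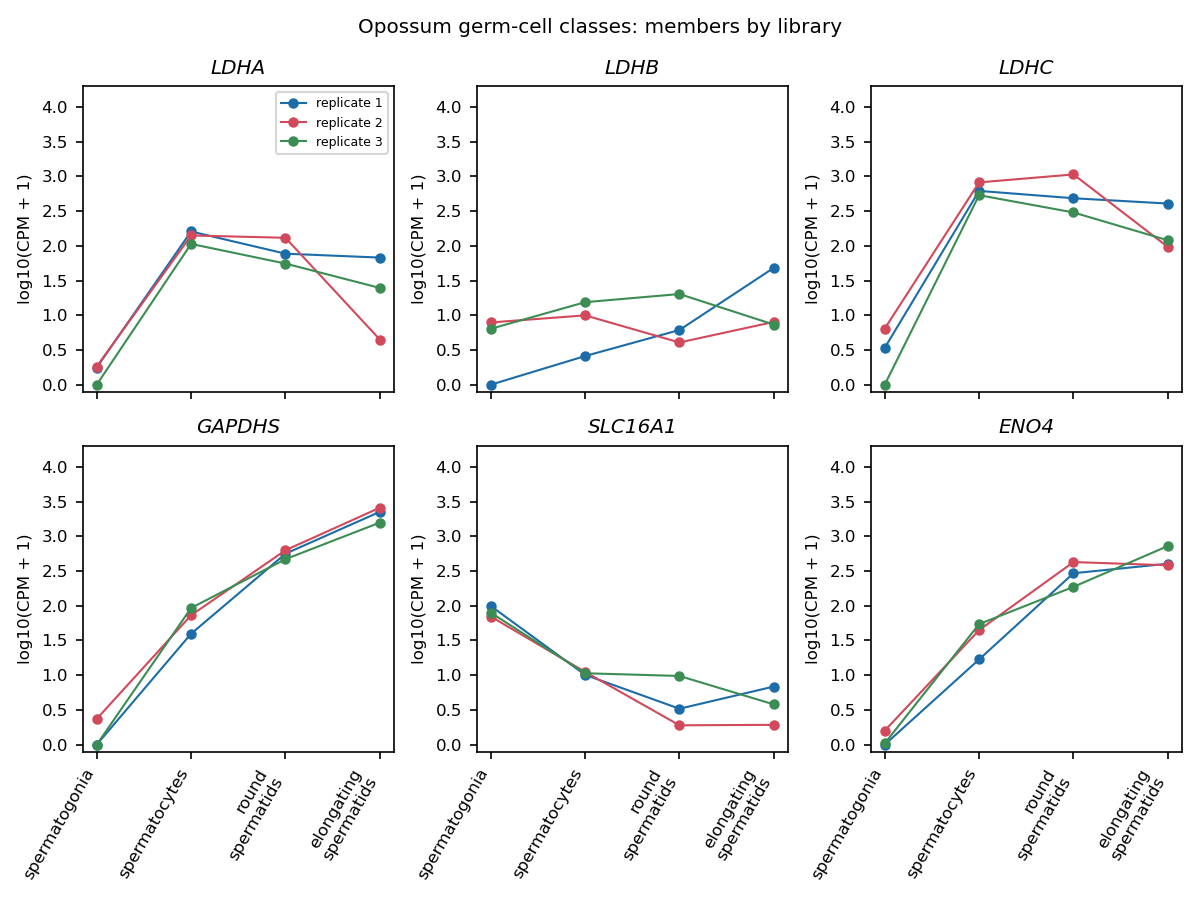
Levels of the 6 named genes in opossum germ-cell classes, as log10(CPM + 1), 1 line per library. GAPDHS rises at every step in each library, and SLC16A1 is highest in spermatogonia.

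Of the 6 opossum members, 5 were called at the first step (4 higher, 1 lower), beside 56.8% of 16391 genes tested. At the second 2 were called, both higher, beside 55.6%, and at the third 3, all higher, beside 39.6%. The medians of the last 2 steps were 0.10 and 1.46, against -0.33 and -0.16 for all genes. None is given for the first, where 3 members have no fold.

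Opossum Leydig cells held 116, 113 and 90.3 CPM of LDHB, above each opossum germ-cell class in all libraries. LDHA read 245, 277 and 304 CPM in peritubular or stromal cells, above each opossum germ-cell class in all libraries. As a gene of most tissues it has no class that should lack it, and the part of free RNA in its germ-cell levels was not tested. LDHC read 166, 29.7 and 91.0 CPM in opossum Leydig cells and 57.3, 329 and 366 CPM in stromal cells, both above its spermatogonial level in each library. Its spermatocyte level lies above both classes in each library. The round and elongating levels lie above the Leydig class in each library, but below the stromal class in replicate 3 for round and in replicates 2 and 3 for elongating spermatids. GAPDHS read 63.2, 72.9 and 201 CPM in stromal cells, above its spermatocyte level in each library, and 103, 6.13 and 47.8 CPM in Leydig cells, above it in replicate 1. ENO4 read 19.6, 29.7 and 79.1 CPM in stromal cells, above its spermatocyte level in replicates 1 and 3, and 9.80, 6.74 and 11.7 CPM in Leydig cells, below it in each library. The round and elongating levels of both genes lie above both classes in each library. The part of free RNA or mixed droplets was not tested.

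The species were compared in their changes, by an interaction term over 9092 genes matched by symbol. The classes may differ in make-up, since mouse spermatocytes leave out the unnamed cluster and opossum naming rests on fewer markers. A species difference cannot be told apart from such a difference between the classes. ENO4 differed at all 3 steps, with the opossum change larger by 3.50 ± 1.14, 3.55 ± 0.63 and 3.03 ± 0.62 on the log2 scale (edgeR adjusted p = 0.0125, 6.96e-05 and 2.92e-04). With cells down to 500 UMIs the first difference was -0.043 and the third 0.26, neither called. The first was also not called with the members in the clustering (2.61) or without mouse replicate 1 (3.19), and was 6.00 without opossum replicate 2. The second kept its call in every alternative run, but starts from opossum spermatocyte levels that lie below the stromal class in replicates 1 and 3. GAPDHS (7.42 ± 0.99, edgeR adjusted p = 9.16e-07) and LDHB (4.22 ± 1.27, edgeR adjusted p = 0.00748) differed at the first step. The LDHB difference was not called in 6 alternatives, which include 1.94 with cells of at least 2000 UMIs, 2.33 at clustering resolution 2 and 3.11 without mouse replicate 2. The GAPDHS difference was 3.65 with cells down to 500 UMIs and 11.3 without opossum replicate 2. The first-step values of ENO4 and GAPDHS depend on opossum spermatogonia with 1.29 and 2.88 UMIs, and their sizes are no bound. The opossum spermatocyte levels of both genes lie below the stromal class (in ENO4, in replicates 1 and 3). The mouse spermatogonial and spermatocyte levels of GAPDHS lie below the Sertoli and stromal classes in each library. The mouse LDHB levels lie far below the somatic ones. The calls were 3 of 6 members at the first step, beside 48.6% of genes, and 1 of 6 at the second and the third, beside 36.8% and 38.4%. LDHC differed by 2.11 ± 0.93 at the first step (edgeR adjusted p = 0.0607), which was not called; it was called with RLE factors (2.77) and DESeq2 (2.84) and was -1.61 with cells down to 500 UMIs.

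Genes most like the isozymes were ranked by Pearson's r of log2(CPM + 1) over 12 sums (4 classes in 3 libraries, which share libraries and depth), as a description. In mouse, Ldhc was most like Cetn1 (r = 0.991), Gm9828 (0.990) and Optn (0.989), and Pgk2 like Lrrc51 (0.995), Odf2 (0.986) and Spa17 (0.983). Gapdhs was most like 4930571K23Rik (0.992), Rbm4b (0.991) and Spata3 (0.990), and Eno4 like Pam16 (0.983), 2810402E24Rik (0.982) and Hsbp1 (0.982). Named opossum genes among the nearest 3 were MYL4 (0.995) and GLB1L (0.988) for LDHC and TMEM247 (0.996) for GAPDHS.

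Other glycolysis genes were followed as 4 lists. Among mouse upper glycolysis genes, 5 of 12 rose and 4 fell at the first step, 6 rose at the second, and 8 rose and 3 fell at the third; of all genes 56.2%, 51.9% and 49.0% were called at these steps in either direction. Hk1, a hexokinase, had 53.9 ± 12, 65.0 ± 30.2, 326 ± 26.6 and 703 ± 104 CPM (SD, n = 3) in the 4 classes. Of 6 lower glycolysis genes, 3 rose and 2 fell, then 1 rose and 1 fell, then 3 rose. Pkm, a pyruvate kinase, read 116 ± 69.9, 3.72 ± 2.23, 50.3 ± 7.54 and 261 ± 41.9 CPM. Among 12 genes of lactate and pyruvate use 8 rose and 3 fell, then 1 rose, then 1 rose and 6 fell. Of 6 other transporters 4 rose and 1 fell, then 1 rose and 1 fell, then 1 fell, and Slc2a8 went from 102 ± 61.7 CPM in spermatocytes to 0.35 ± 0.08 CPM in elongating spermatids.

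Opossum lists hold fewer named genes, beside 56.8%, 55.6% and 39.6% of all genes called at the 3 steps. Of 4 lower glycolysis genes, 1 rose and 1 fell, then 3 rose, then 3 rose. PGAM2, a phosphoglycerate mutase, went from 0.08 ± 0.13 and 7.62 ± 5.49 to 88.2 ± 50.6 and 390 ± 136 CPM (SD, n = 3). Of 7 upper glycolysis genes, 5 rose, then 2 rose and 1 fell at each later step, and HK1 read 337.4 ± 87.3 CPM in round and 67.2 ± 31.3 CPM in elongating spermatids. HK1 had 0 TPM in every bulk library, so it is not among the bulk genes tested below. Of 3 transporters, 2 rose, then 1 fell, then 2 fell. Among 6 genes of lactate and pyruvate use, 2 rose and 1 fell, then 1 rose and 3 fell, then 1 rose and 1 fell.

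Over opossum ages, LDHA and LDHB fell and LDHC rose in whole-testis RNA, and GAPDHS and ENO4 rose between 2 and 3 months. Values are TPM (the authors' abundance scaled by transcript length and depth), changes are on the log2(TPM + 1) scale from limma with the library kit as a term, and 19300 genes were tested. LDHC had 3.44 and 2.1 TPM at 1 month, 95.5, 515, 308 and 13.2 TPM at 2 months and 2188, 1698, 1592 and 2141 TPM at 3 months. At 4 months it read 662, 1071 and 1780 TPM, and adults ran from 160 to 1915 with a median of 450 TPM. The rise was 5.69 ± 1.24 from 1 to 2 months (limma adjusted p = 0.00581), 3.30 ± 1.09 to 3 months (limma adjusted p = 0.0350) and 7.31 ± 0.95 from 1 month to adults (limma adjusted p = 9.44e-06). From 3 months to adults LDHC changed by -1.68 ± 0.75 (limma adjusted p = 0.187).

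GAPDHS read 0.07 and 0.35 TPM at 1 month and 0.51, 4.08, 1.78 and 1.05 TPM at 2 months. At 3 months it held 95.1, 154, 196 and 71.6 TPM (6.14 ± 0.74 above 2 months, limma adjusted p = 5.08e-05), at 4 months 233, 274 and 147 TPM, and in adults 84.9 to 713 with a median of 509 TPM. The step from 3 months to adults was 1.48 ± 0.51 (limma adjusted p = 0.0987; called on FPKM, 1.78, and without adult replicate 1, 1.84). ENO4 had 0.52 and 0.35 TPM at 1 month, 0.54, 22.2, 14.6 and 0.11 TPM at 2 months and 251, 241, 305 and 242 TPM at 3 months (5.95 ± 1.1204, limma adjusted p = 0.00207). Its 4-month libraries lay at 77.8, 185 and 323 TPM and adults at 39.0 to 319, median 246 TPM.

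LDHA fell early, from 3234 and 3371 TPM at 1 month to 690, 332, 257 and 97.5 TPM at 2 months (-2.16 ± 0.56, limma adjusted p = 0.0184), and read 896, 710, 709 and 850 TPM at 3 months. LDHB had 1688 and 1654 TPM at 1 month, 1434, 310, 400 and 405 TPM at 2 months, and 306, 322, 362 and 404 TPM at 3 months (-1.77 ± 0.49 from 2 months, limma adjusted p = 0.0153; -0.58 and not called with no kit term). From 1 month to adults LDHA changed by -2.93 ± 0.44 and LDHB by -2.04 ± 0.43 (limma adjusted p = 3.48e-05 and 8.27e-04), ENO4 by 6.81 ± 0.98 and GAPDHS by 8.12 ± 0.65 (limma adjusted p = 2.63e-05 and 3.47e-08). The LDHC share of the 3 lactate dehydrogenases in TPM was 0.06% ± 0.02 (SD, n = 2) at 1 month, 20.8% ± 20.7 (n = 4) at 2 months, 62.4% ± 2.00 (n = 4) at 3 months, 52.3% ± 7.32 (n = 3) at 4 months and 43.0% ± 12.4 (n = 7) in adults. SLC16A1 stayed within 15.0 to 101 TPM over all libraries. Its change from 2 to 3 months was -1.10 ± 0.53 (limma adjusted p = 0.137), called on FPKM (-1.42) and without adult replicate 3 (-1.21), and no other comparison called it on TPM.

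**Figure D4:**
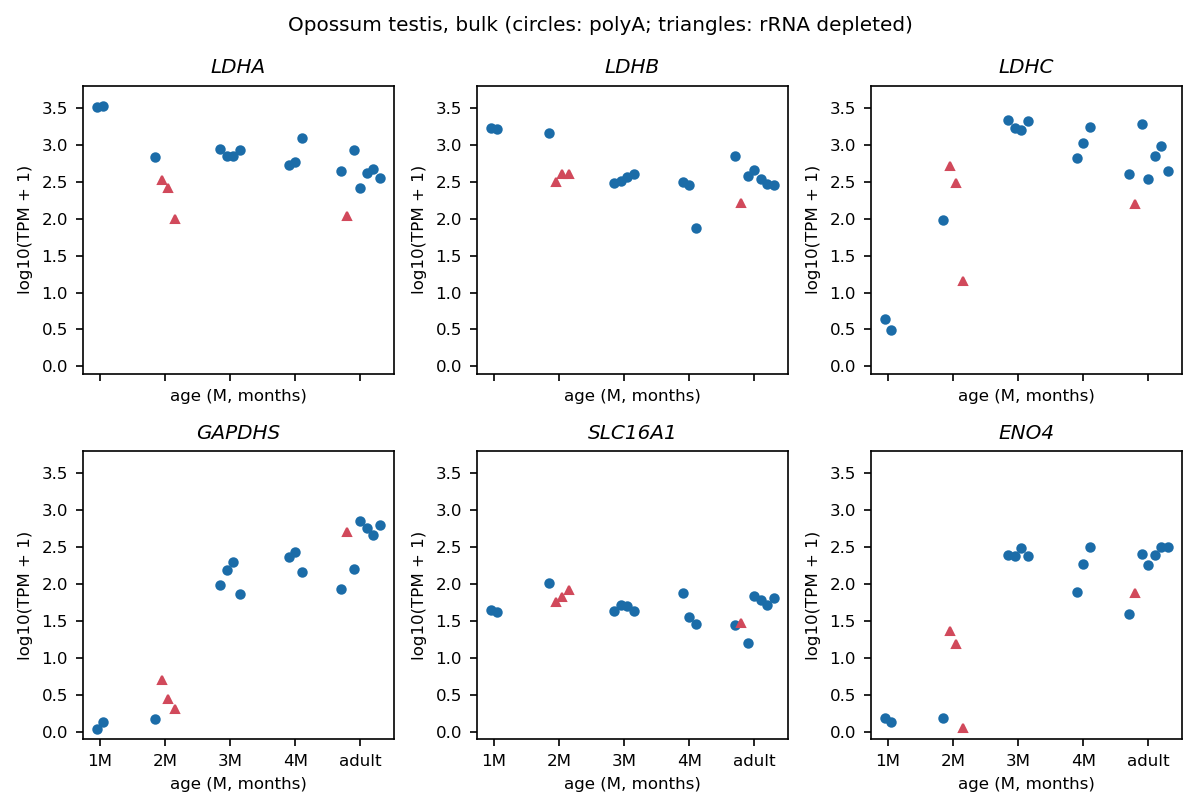
Bulk TPM of the 6 named opossum genes by age, as log10(TPM + 1), 1 point per library, with polyA libraries as circles and rRNA-depleted ones as triangles. LDHC, GAPDHS and ENO4 are low at 1 month and high at 3 months.

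The calls were 2 of 6 members from 1 to 2 months, beside 11.1% of all genes, 4 of 6 from 2 to 3 months, beside 23.0%, none of 6 from 3 months to adults, beside 3.44%, and 5 of 6 from 1 month to adults, beside 44.8%. In the third of these limma called 663 genes of the whole table, and 3 of the 6 members had an unadjusted p under 0.05. Germ-cell markers moved with age: the summed TPM of 26 spermatocyte markers was 409 to 433 at 1 month and 6887 to 7855 at 3 months, and that of 14 round spermatid markers 7.43 to 9.01 and 1384 to 1821, with 4 of the 14 at 0 in both 1-month libraries. Spermatocyte markers then summed to 3601 to 5692 at 4 months and 1476 to 5484 in adults, and round spermatid markers to 789 to 2156 and 694 to 2337. Spermatogonial markers (18) summed to 313 to 322 at 1 month, 725 to 981 at 3 months and 416 to 1465 in adults. Elongating spermatid markers (10) went from 25.4 to 26.1 at 1 month to 7156 to 26539 in adults, and peritubular or stromal markers (13) from 2485 to 3398 at 1 month to 471 to 617 at 3 months. Over the same ages immune markers (12) summed to 174 to 189 at 1 month and 700.5 to 718 at 3 months, and Sertoli markers (6) to 108 to 118 and 197 to 274. Endothelial markers (10) summed to 90.5 to 122 and 20.3 to 43.3, and Leydig markers (6) to 609 to 612 and 434 to 531. Their part in the changes was not tested, and in bulk tissue fewer cells of a type and less RNA per cell cannot be told apart. Library kit is tied to age, since 3 of 4 libraries of 2 months were rRNA depleted. Within the 16 polyA libraries LDHC changed by 4.70 from 1 to 2 months and by 4.29 to 3 months. From 2 to 3 months ENO4 changed there by 7.39 and GAPDHS by 6.32. Each of these changes has only 1 library on the side of 2 months. Without the 1 polyA library of 2 months the change to 3 months was 1.81 for LDHC, 3.79 for ENO4 and -1.37 for LDHB, none of them called. The rise of LDHC to 3 months was also not called without any one of the 3-month libraries (3.23 to 3.38). With no filter on low values that rise was 3.30 and not called. From 1 to 2 months the rise of LDHC was not called without 1-month replicate 2 (5.43) or adult replicate 2 (4.70). The fall of LDHA from 1 to 2 months was not called without either 1-month library (-2.19 and -2.13), 2-month replicate 1 (-2.01) or adult replicate 2 (-2.26).

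Of the other opossum glycolysis genes, 5 of 7 in upper glycolysis rose from 1 month to adults, as did 1 of 4 in lower glycolysis and 2 of 4 transporters, while 1 transporter and 1 of 7 genes of lactate and pyruvate use fell, beside 44.8% of all genes called in either direction. From 1 to 2 months 1 upper glycolysis gene rose and no other was called (11.1% of all genes). From 2 to 3 months 2 upper glycolysis genes and 1 of each other list rose (23.0%), and from 3 months to adults limma called none (3.44%).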

How the data were processed

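The members and the gene lists were chosen with earlier results of these data known. The authors deposited single-cell matrices of estimated counts (UMIs of each gene in each barcode, mostly as fractional values), made with Cell Ranger 6.0.1 per the submitters' processing notes; what made them non-whole is not given in the sources used here. The deposited bulk tables hold coverage (signal), FPKM and TPM per gene, per the file headers, with HISAT2 2.2.1, SAMtools 1.12 and StringTie 2.1.4 named in the submitters' processing notes. Builds named there or in labels are GRCm39, mm39 and ASM229v1.

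Cells were barcodes reaching 1000 UMIs and 500 genes, and the top 8% by Scrublet score were removed (scanpy 1.11.5). Clusters (2000 variable genes, 30 components, 8 neighbours per library, Leiden resolution 1, leidenalg 0.10.2) excluded members, listed pathway genes and mitochondrial genes, and were named from markers (at least 3 at 1.5-fold and above 5 CPM). Sums per library and class of at least 20 cells, rounded to whole counts, were tested with edgeR 4.0.16 with the library as a block, since all classes of a library come from one sample. Bulk log2(TPM + 1) of genes with at least 1 TPM in 2 or more libraries was tested with limma 3.58.1 (age and kit). The SE beside an edgeR change is its size divided by the square root of F. Named genes were the 10 members everywhere and the 3 genes most alike (mean at least 50 CPM). In some of the single-cell lists, not all, the gene called in most comparisons (ties by mean level) is also named. Total counts per library were 4.54e+07 to 6.53e+07 UMIs in mouse and 2.27e+07 to 3.77e+07 in opossum, and bulk libraries had 2.90 to 7.12 aligned gigabases, from coverage and FPKM.

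The edgeR fit was tested on simulated data for the mouse step from spermatogonia to spermatocytes (17840 genes). For a log2 fold of 2 it recovered 100% of 28 changed genes with an expected count above 20 in the shallowest sum, 65.6% of 32 at 1 to 5, and 7.69% of 13 at up to 1. For a log2 fold of 1.5 the shares were 90.9% of 33, 41.4% of 29 and 6.25% of 16. For the same opossum step (15329 genes) a log2 fold of 2 was recovered in 100% of 47 genes above 20 and 65% of 20 at 1 to 5. For the species difference at that step (8560 genes) it was recovered in 100% of 31, 47.1% of 17 and, up to 1, 0 of 4 genes, and a fold of 1.5 in 72.2% of 36, 15.6% of 32 and 0 of 3. Genes with few counts in spermatogonia can therefore change without being called. The simulated classes had the same composition apart from the changed genes, which went up and down in equal number. The simulation therefore does not test the scaling between classes, and its false calls are not given here.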

Additional observations from a re-analysis of the deposited data

Results flagged for a closer look

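In the bulk data 2 values stood far from the rest of their group by Dixon's test, out of 18 groups of a gene and an age examined, where chance gives about 1 in 20. ENO4 in 3-month replicate 3 was at 305 TPM, above 3 libraries between 241 and 251 TPM. LDHB in 2-month replicate 1 was at 1434 TPM, above 310 to 405 TPM in the others; it is the polyA library of that age and the others were rRNA depleted, and the part of the kit was not tested.

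Changes between classes differed between the species by the interaction test for 3 genes, with positive values for a larger opossum change. A species difference cannot be told apart here from unlike make-up of the classes in mouse and opossum. ENO4 differed by 3.50 at the step into spermatocytes, 3.55 into round spermatids and 3.03 into elongating spermatids. GAPDHS differed by 7.42 and LDHB by 4.22 at the step into spermatocytes. With cells down to 500 UMIs the ENO4 differences at the first and last step were not called (-0.043 and 0.26), and the LDHB difference was not called in 6 alternatives (as low as 1.94 with cells of at least 2000 UMIs). Opossum spermatogonia held 1.29 UMIs of ENO4, 2.88 of GAPDHS and 18.4 of LDHB in all, so the first-step sizes depend on very few counts. The first-step GAPDHS difference also rests on mouse levels below the Sertoli and stromal classes and on opossum spermatocyte levels below the stromal class. Mouse germ-cell LDHB lies far below the somatic classes.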

How the results depend on the processing

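Depth limits the spermatogonia, whose sums (as low as 594111 UMIs in mouse replicate 2 and 685406 in opossum replicate 3) enter every first-step change; in opossum replicate 1 round spermatids were shallower (1047992 against 1360195 UMIs). Of 90 member changes tested 48 were called. Of all genes, 36.8% to 56.8% were called per single-cell comparison and 3.44% to 44.8% per bulk comparison. Of the member changes not called, 32 are given as levels only. Among these, 19 changed sign and 11 were called in some alternative. Among called or printed member changes, 552 of 618 values under other settings kept direction and call, and so did 392 of 430 that left out 1 library. The alternatives chosen after seeing the data were the unnamed mouse cluster as spermatocytes, clusters of relative depth under 0.6 left out, and library size without composition factors. In the opossum fits both cluster settings changed nothing (9315, 9119 and 6499 genes called, as in the main run). Their values there could not differ, yet are counted above as kept. Leaving out a bulk library of an age outside a comparison is counted as well.

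Directions turned for mouse LDHC at elongation (-1.08 by library size; -0.26 to 0.62 leaving out 1 library), for opossum ENO4, LDHC and LDHA at elongation (-0.75, 0.97 and 1.32 with cells down to 500 UMIs; leaving out 1 library, -0.75 to 0.35 for LDHC and -1.30 to 0.44 for LDHA) and, at the first step with cells down to 500 UMIs, for the species differences of ENO4 (-0.043) and LDHC (-1.61). The LDHC difference, not called here, passed the call at 2.84 with DESeq2 (adjusted p = 0.00346), and its adjusted p ran from 0.00231 to 0.919 over all alternatives. The cause was not tested.

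Counts of called genes moved by over 1.5 times as follows. With cells of at least 2000 UMIs the opossum first step gave 5885 genes and the species difference there 2941, and at 500 UMIs the opossum step to elongation gave 4308. From 1 to 2 months the count was 5156 with no kit term, 1074 in polyA libraries alone and 1006 with the replicate block. From 2 to 3 months the replicate block gave 2804. From 3 months to adults it was 340 with a pseudocount of 0.1, 433 with no filter and 998 with the replicate block. Leaving out 1 library gave 6784 to 11202, 5787 to 9407 and 5580 to 9979 at the 3 mouse steps, each lowest without replicate 1. The bulk ranges were 582 to 3111 (1 to 2 months), 141 to 5277 (2 to 3 months, lowest without 2-month replicate 1), 129 to 1052 (3 months to adults) and 5438 to 9926 (1 month to adults).

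Shares moved by more than 1 SD in 7 of 75 values: mouse GAPDHS in spermatocytes at 81.2% (500 UMIs), 83.8% (resolution 2), 84.3% (no doublet removal) and 67.5% (low-depth clusters left out), GAPDHS and LDHC in elongating spermatids at 99.6% and 94.1% (500 UMIs), and PGK2 in spermatocytes at 97.4% (unnamed cluster as spermatocytes). The 75 include opossum shares with low-depth clusters left out, which could not move.

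Replicate numbers did not pair the bulk libraries: deviations of same-numbered libraries had a median correlation of 4.58e-04, with 7 of 29 pairs over 0.1. Under the replicate block LDHA lost its call from 1 to 2 months (-2.03) and LDHC from 2 to 3 months (3.04). In the single-cell fits, where the block is the library, no replicate block ended the mouse calls of PGK2 in round spermatids (1.62), of PGK1, SLC16A1, LDHB and LDHA at elongation (1.98, 1.63, 2.00 and -1.27), and of opossum LDHB at elongation (2.26).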
